A study of Mus musculus with 14 samples.

Results

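The genes described here are 33 genes of sterol and fatty acid synthesis and of its control by SREBP, of 42687 genes counted in RPE (retinal pigment epithelium) cells of mice. They were taken by their known place in the pathway, and were chosen with earlier results of these data known. The sterol branch holds 18 enzymes, from the first condensation of acetyl units to cholesterol, and the fatty acid branch holds 7 genes. The remaining members are 5 genes for SREBP and its regulators (Srebf1, Srebf2, Scap, Insig1 and Insig2), 2 sterol transport genes (Stard4 and Tmem97) and Lpin1. All 33 passed the filter on low counts in every comparison.

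The study asked what the loss of CLIC4, a chloride intracellular channel protein, does to RPE cells, and lipid handling was among its questions. The comparison here asks how the levels of these genes differed between KO mice and each kind of control mouse, and whether the sterol and the fatty acid branches differed alike. Each of the 14 libraries was made from the RPE cells of both eyes of 1 male mouse of 3 months, on the C57BL/6J background. KO mice (Best1-Cre+/-;Clic4f/f) carry a Cre recombinase driven by the Best1 promoter, which acts in the RPE, and 2 floxed Clic4 alleles. They form 3 sets that share no library. In the WT set, 3 KO mice stand against 3 wild-type C57BL/6J mice, which carry neither Cre nor floxed alleles. In the Ctrl set, 2 KO mice stand against 2 Ctrl mice (Clic4f/f without Cre), and in the CreCtrl set 2 KO mice stand against 2 CreCtrl mice (Best1-Cre+/- without floxed alleles). Control genotype and set cannot be told apart. The study bred KO and Ctrl mice from the same crosses, as littermates, which its methods do not say of WT and CreCtrl mice. Cells other than RPE in a preparation keep Clic4, since Cre is not driven in them.

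As background, SREBP transcription factors are made as membrane proteins of the endoplasmic reticulum. Where sterols are plentiful, the INSIG proteins hold SREBP and its escort SCAP there. Where sterols are scarce, SCAP carries SREBP to the Golgi, where proteases free the part that enters the nucleus and switches on the genes of sterol uptake and synthesis. The Srebf2 product acts mainly on sterol genes and a Srebf1 product mainly on fatty acid genes. RPE cells take up shed tips of photoreceptor outer segments, which are rich in cholesterol and fatty acids, and exchange lipids with the choroid.

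The deposited counts of a library summed to between 9828293 and 32384166. Clic4 was lower in every KO library than in every control library of its set. Its level in CPM (a gene's counts over the scaled library total, with TMM factors within a set) was 243, 249 and 240.4 in WT and 32.6, 22.5 and 17.9 in KO mice of that set, 69.2 and 59.4 in Ctrl and 9.40 and 32.7 in KO mice, and 86.5 and 109 in CreCtrl and 13.2 and 30.4 in KO mice. Its log2 fold change was -3.32 (SE 0.22, edgeR adjusted p = 3.33e-05), -1.61 (SE 0.58, edgeR adjusted p = 0.333) and -2.16 (SE 0.36, edgeR adjusted p = 0.0132) in the same order. RPE markers, led by Ttr, Rgr and Rlbp1, were present in every library, and Best1 itself was at most 6.42 CPM.

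Marker genes of RPE and of other cells differed between KO and control libraries. The summed level of 10 RPE markers was 18058, 20969 and 26600.3 CPM in WT against 75213, 82573 and 76466 CPM in KO mice, 47087 and 46642 CPM in Ctrl against 71518 and 73882 CPM in KO mice, and 59695 and 52120.0 CPM in CreCtrl against 71712 and 80283 CPM in KO mice. The medians of their log2 fold changes were 1.59, 0.58 and 0.50, and 9, 0 and 1 of the 10 were called higher by edgeR. Best1 went against the other RPE markers, with levels in KO mice below all controls in the WT and CreCtrl sets and log2 fold changes of -1.82 (SE 0.66, edgeR adjusted p = 0.0616) and -1.11 (SE 0.43, edgeR adjusted p = 0.105). Fibroblast markers (10 genes, led by Dcn and Col1a2) were lower, with 10, 0 and 8 called and medians of -4.16, -2.94 and -3.37, as were 8 immediate-early genes, with 8, 0 and 8 called and medians of -3.59, -2.88 and -3.29, and 8 endothelial genes, with 6, 0 and 7 called and medians of -2.30, -2.11 and -2.50. Of 8 myeloid markers, led by Csf1r, Lyz2 and C1qa, 7, 0 and 6 were called lower, with medians of -3.73, 0.30 and -2.81, and 1 was called higher in the WT set. Of 8 rod markers (Gnat1 and Rom1 among them), 0, 0 and 7 were called lower and 1 was called higher in the WT set, with medians of 0.45, 0.63 and -3.22. Their summed levels ranged from 63.5 to 4721 CPM over the 14 libraries. Of 6 adipocyte markers, a source of lipid synthesis transcripts outside the RPE, Lep was at 0 in every library and the summed level was at most 10.1 CPM. The part of these differences in the results was not tested, and fewer cells of a type and less RNA per cell cannot be told apart in such samples.

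Genes of sterol synthesis and its control rose against WT and CreCtrl mice, and no member differed from Ctrl mice by the test. In the WT set, 16 of the 33 members rose and Scd1 fell (edgeR adjusted p under 0.05), where 35.1% of all genes tested were called, 16.1% higher and 19% lower. In the CreCtrl set 12 members rose and none fell, where 15.8% of genes were called, 3.6% higher and 12.2% lower. All 12 calls of the CreCtrl set were lost without KO replicate 2, which leaves 1 KO mouse, and in 1 fit of all 14 libraries. This holds for each rise of a member given for that set. In that fit of all libraries, 704 of 17662 genes tested were called for the CreCtrl set. By DESeq2, 18 members were called in the WT set, 16 higher and 2 lower (38% of all genes, 16.9% higher and 21.1% lower), and 19 in the CreCtrl set, each of them higher (25.7% of all genes, 10.4% higher). No member was called against Ctrl mice by edgeR, which called 0% of all genes there, or by DESeq2, which called 7.27%. None had an unadjusted p under 0.05 there either, against 12.1% of all genes.

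In the sterol branch, 9 of 18 enzymes rose in the WT set and 7 in the CreCtrl set, and none fell in either. The median log2 fold change of the 18 was 0.83, -0.21 and 0.63 in the WT, Ctrl and CreCtrl sets. For all genes tested it was -0.08, 0.01 and -0.02. The fatty acid branch had 3 genes that rose and 1 that fell in the WT set and 1 that rose in the CreCtrl set, with medians of 0.35, -0.14 and 0.55. In the WT set the RPE markers had a larger median (1.59) than either branch. In the Ctrl set the RPE marker median was 0.58, while both branch medians were negative. In the CreCtrl set it was 0.50, which lay below the medians of both branches.

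By level alone, all KO libraries were above all control libraries for 21 of 33 members against WT, 2 against Ctrl and 28 against CreCtrl mice, where these shares were 23.7%, 18.2% and 34.8% of all genes tested. All were below for 3 (Ebp, Scd1 and Stard4), 2 (Mvk and Pmvk) and 2 members (Stard4 and Tm7sf2), against 28.4%, 22.8% and 36.9% of genes. The log2 fold change was above 0 for 29, 12 and 30 members, against 46.5%, 51.3% and 48.7% of genes. It was above 0 in every set for 11 members (28.8% of genes) and below 0 in every set for Scd1 and Stard4 (27.8% of genes). Of the 16 members that rose against WT and the 12 that rose against CreCtrl, 8 rose in both, which is 50% of the former and 66.7% of the latter. Of all genes tested in both sets, 418 rose in both, which is 16.8% of those that rose against WT and 73.2% of those that rose against CreCtrl. The 8 members were Hmgcs1, Sqle, Lss, Cyp51, Msmo1, Srebf2, Insig2 and Tmem97.

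**Figure D1:**
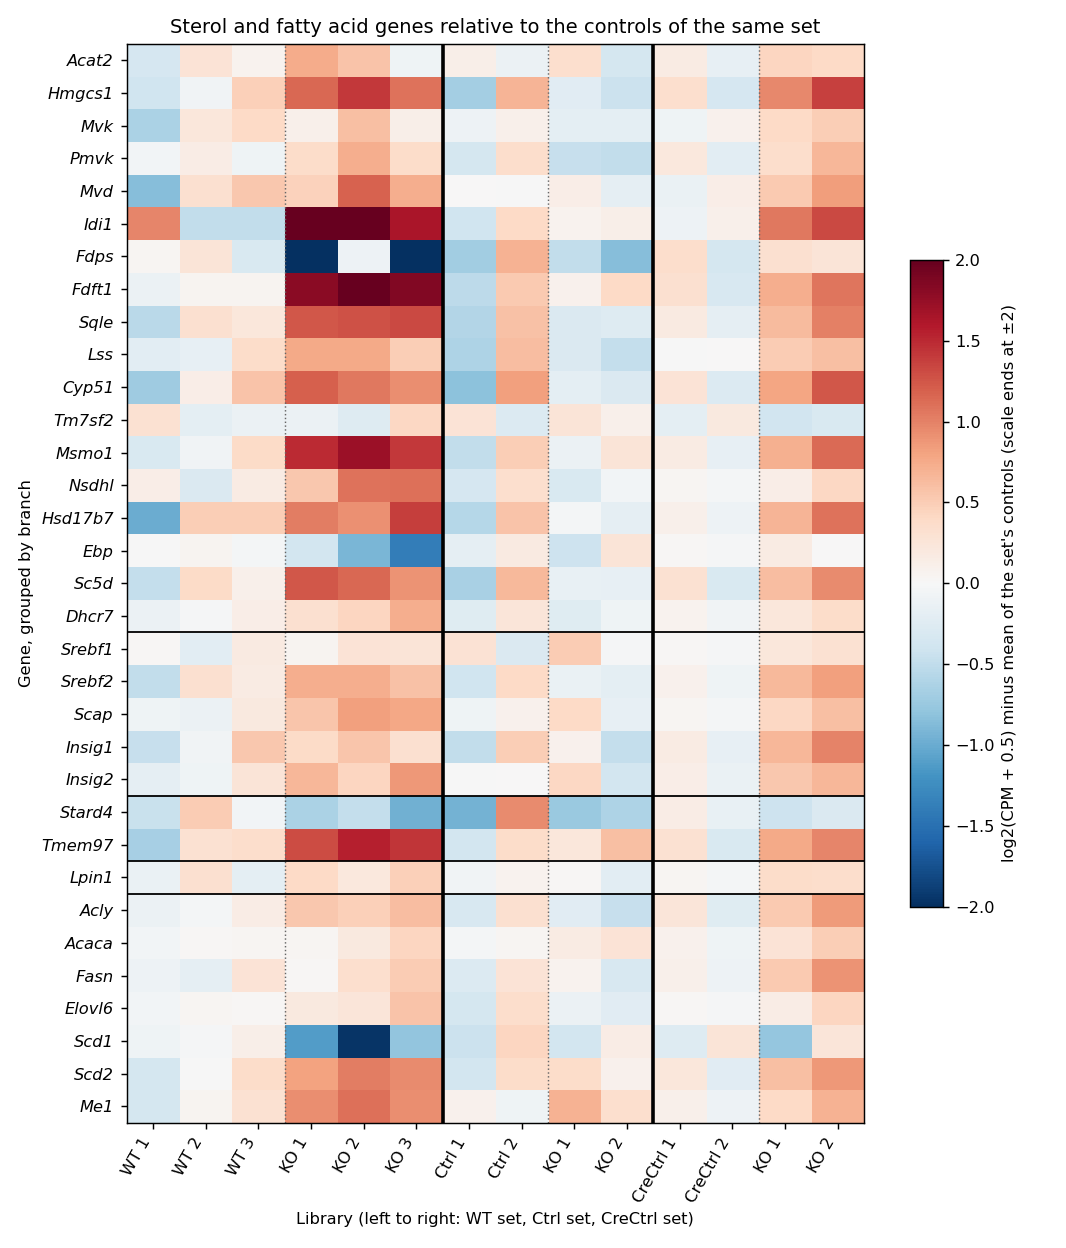
Each row is 1 of the 33 members and each column 1 library, coloured by log2(CPM + 0.5) minus the mean of the control libraries of the same set, with the colour scale ending at 2 in either direction. Solid vertical lines part the WT, Ctrl and CreCtrl sets, dotted lines part control from KO libraries, and horizontal lines part the sterol branch, SREBP and its regulators, transport genes, Lpin1 and the fatty acid branch. Most sterol rows are red in KO libraries of the WT and CreCtrl sets, and in the Ctrl set the column with the most red is Ctrl replicate 2.

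One control library decided the direction of the medians in the Ctrl set. Ctrl replicate 2 had a higher CPM than Ctrl replicate 1 for 28 of 33 members and 15 of 18 sterol enzymes. The summed level of the sterol branch was 634 and 1268 CPM in Ctrl replicates 1 and 2 and 797 and 834 CPM in the KO mice, so the KO libraries lay between the controls. The summed RPE markers of both Ctrl libraries were 47087 and 46642 CPM, and the summed rod markers 1955 and 511 CPM. Without Ctrl replicate 2, the median log2 fold change was 0.21 for the sterol and 0.26 for the fatty acid branch, and without Ctrl replicate 1 it was -0.45 and -0.38. No member was called in either case. The part of rod or other cells in the level of Ctrl replicate 2 was not tested.

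The first committed steps of the mevalonate pathway are led by Hmgcs1, which makes HMG-CoA. Its level was 24.2, 30.3 and 44.5 CPM in WT and 71.4, 86.0 and 68.8 CPM in KO mice, and 78.5 and 49.2 CPM in CreCtrl and 122 and 161 CPM in KO mice. KO and control libraries did not overlap in either set. It rose with a log2 fold change of 1.19 (SE 0.23, edgeR adjusted p = 0.00403) in the WT set and 1.14 (SE 0.25, edgeR adjusted p = 0.0296) in the CreCtrl set. In the Ctrl set the controls had 87.9 and 229 CPM and the KO mice 122 and 105 CPM, so the KO libraries lay between a low and a high control.

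The other 6 genes of this stretch changed less or were poorly measured. Acat2 (acetoacetyl-CoA formation), Mvk and Pmvk (phosphorylation of mevalonate) and Mvd (isopentenyl diphosphate formation) passed in no set, with log2 fold changes of 0.44, 0.23, 0.51 and 0.72 in the WT set and 0.42, 0.45, 0.51 and 0.69 in the CreCtrl set. Idi1, which isomerizes isopentenyl diphosphate, had 0.883, 0 and 0 CPM in WT and 3.28, 2.57 and 1.67 CPM in KO mice and reached 6.03 CPM at most in any library. It rose in the CreCtrl set, from 1.92 and 2.31 to 4.93 and 6.03 CPM, with a log2 fold change of 1.38 (SE 0.36, edgeR adjusted p = 0.0443). Fdps, which joins isoprene units to farnesyl diphosphate, had 1.85, 2.23 and 1.36 CPM in WT and 0, 1.62 and 0 CPM in KO mice and was at most 8.37 CPM. It passed in no set. Of the stretches of 50 bases in their transcripts, 25.3% of those of Idi1, 26.2% of those of Fdps and 39.1% of those of Acat2 also occur in transcripts of other genes, so their counts are uncertain.

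All 3 enzymes from farnesyl diphosphate to lanosterol rose in the WT set. Fdft1, which makes squalene and commits the pathway to sterols, had 41.0, 46.3 and 46.4 CPM in WT and 156, 184 and 161 CPM in KO mice, the largest called rise of the 33 members there, with a log2 fold change of 1.91 (SE 0.12, edgeR adjusted p = 3.33e-05). Its levels in the other sets were 64.7 and 135 CPM in Ctrl and 99.2 and 123 CPM in KO mice, and 109 and 69.3 CPM in CreCtrl and 144 and 183 CPM in KO mice. The KO libraries were above both CreCtrl libraries and between the Ctrl libraries. Its log2 fold change in the CreCtrl set was 0.88 (SE 0.24, edgeR adjusted p = 0.0508), just short of the threshold. Of the exon bases of Fdft1, 18.3% lie opposite those of the abundant gene Ctsb, whose log2 fold changes were 0.19, 0.45 and 0.20, and the kit marked the strand, but whether the counting used it is not given in the sources used here.

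Sqle, which adds oxygen to squalene and is a rate-limiting step after mevalonate, had 18.2, 33.5 and 31.2 CPM in WT and 63.8, 64.9 and 67.5 CPM in KO mice, and 53.2 and 41.6 CPM in CreCtrl and 73.4 and 94.9 CPM in KO mice. No KO library overlapped the controls in these sets. It rose with log2 fold changes of 1.24 (SE 0.23, edgeR adjusted p = 0.00315) and 0.83 (SE 0.19, edgeR adjusted p = 0.0345). Lss, which closes the rings to lanosterol, had 19.2, 20.012 and 29.1 CPM in WT and 38.4, 38.4 and 31.8 CPM in KO mice, and 36.3 and 37.1 CPM in CreCtrl and 52.3 and 56.0 CPM in KO mice. Its rise was smaller, at 0.66 (SE 0.22, edgeR adjusted p = 0.0444) and 0.56 (SE 0.14, edgeR adjusted p = 0.0408). Ctrl mice had 55.1 and 125 CPM of Sqle and their KO mice 67.9 and 69.3 CPM, again between the controls.

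From lanosterol to cholesterol, 5 of 8 enzymes rose in the WT set (Cyp51, Msmo1, Nsdhl, Sc5d and Dhcr7) and 3 in the CreCtrl set (Cyp51, Msmo1 and Hsd17b7). Msmo1, which oxidizes the methyl groups at the fourth carbon, had 32.7, 38.7 and 53.1 CPM in WT and 116, 134 and 109.5 CPM in KO mice. In the CreCtrl set it had 90.9 and 71.9 CPM in controls and 133 and 178 CPM in KO mice, and in the Ctrl set 93.5 and 184 CPM and 121 and 157 CPM. The groups were apart in the WT and CreCtrl sets and overlapped in the Ctrl set. Its log2 fold change was 1.52 (SE 0.19, edgeR adjusted p = 0.000457) in the WT set and 0.93 (SE 0.20, edgeR adjusted p = 0.0284) in the CreCtrl set.

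Cyp51, the demethylase of lanosterol, had 12.5, 23.0 and 31.2 CPM in WT and 48.4, 43.7 and 39.9 CPM in KO mice, and 35.3 and 24.1 CPM in CreCtrl and 50.7 and 70.0 CPM in KO mice. It rose in both, by 0.98 (SE 0.30, edgeR adjusted p = 0.0349) and 1.02 (SE 0.24, edgeR adjusted p = 0.034) on the log2 scale. Sc5d, which introduces a ring double bond, had 16.7, 30.9 and 25.1 CPM in WT and 56.1, 52.9 and 44.015 CPM in KO mice, a log2 fold change of 1.07 (SE 0.24, edgeR adjusted p = 0.00848). Both genes had their highest level of all 14 libraries in Ctrl replicate 2, at 108 CPM for Cyp51 and 113 CPM for Sc5d.

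The remaining enzymes of this stretch differed from each other. Nsdhl, which removes a carboxyl group, had 21.976, 16.4 and 22.4 CPM in WT and 29.5, 43.0 and 43.6 CPM in KO mice and rose by 0.93 (SE 0.23, edgeR adjusted p = 0.013) on the log2 scale. Dhcr7, which reduces the last double bond in one route to cholesterol, had 32.2, 34.4 and 38.5 CPM and 43.9, 47.5 and 58.1 CPM and rose by 0.51 (SE 0.17, edgeR adjusted p = 0.045). Hsd17b7, a keto-reductase of the pathway, had 14.4 and 12.4 CPM in CreCtrl and 21.6 and 29.0 CPM in KO mice and rose there by 0.92 (SE 0.22, edgeR adjusted p = 0.0367). Its groups in the WT set had 4.50, 13.5 and 13.4 CPM and 19.6, 18.2 and 25.5 CPM. Ebp, the sterol isomerase, had 24.006, 24.9 and 23.4 CPM in WT and 18.6, 12.5 and 8.90 CPM in KO mice, with no overlap, and its log2 fold change of -0.85 (SE 0.30, edgeR adjusted p = 0.0538) did not pass the threshold. Tm7sf2, a sterol reductase whose exons share 12.1% of their bases with Vps51 on the same strand, had log2 fold changes of 0.03, 0.17 and -0.36 in the WT, Ctrl and CreCtrl sets, none of which passed.

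**Figure D2:**
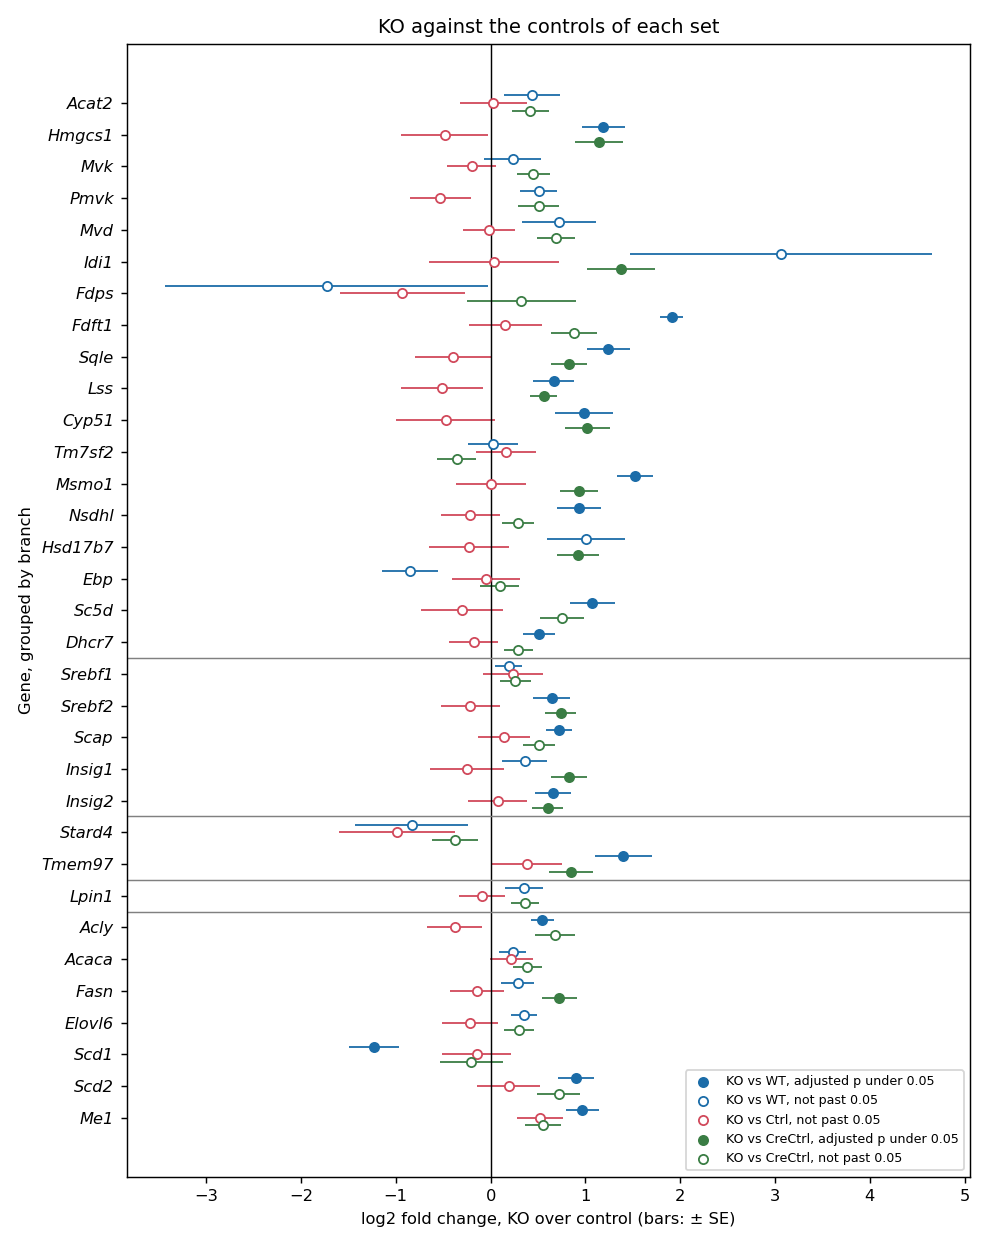
The horizontal axis gives the log2 fold change of KO over control for each of the 33 members, with bars of 1 SE from edgeR, in blue for the WT, red for the Ctrl and green for the CreCtrl set. Filled points passed an adjusted p of 0.05. Filled points lie to the right of 0 except that of Scd1 in the WT set, and no point of the Ctrl set is filled.

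Promoters from the RefSeq promoter table (GRCm38.p6) were read for 27 of the 33 members. Fdps, Fdft1, Sqle, Scd1, Scd2 and Stard4 were not among them and were not searched. A gene with several starts was counted as holding a motif if any of its starts had a match. The 250 bases before each start were read on both strands. They were searched for 4 short motifs that SREBP and its partner factors are known to bind. One was a sterol regulatory element written as TCACNCCAC. The others were the CCAAT box, spelled by its name, the GC box, spelled GGGCGG, and the E-box, spelled CACGTG. The CCAAT box was present for 21 of 27 members (77.8%) and for 37.5% of all 27025 genes of the table. It was present for 14 of 15 sterol enzymes and 2 of 5 fatty acid genes. The GC box was present for 22 members, 14 of them sterol enzymes and 2 fatty acid genes, against 35.4% of all genes. The E-box was present for 5 members (18.5% against 6.86%) and the element TCACNCCAC for Hmgcs1 alone (3.70% against 1.22%). Shares of all genes are over the whole table and not only over genes tested here. A match is a run of letters and not a site shown to be bound.

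The 4 promoters printed here show how these motifs lie in members called higher in the CreCtrl set, 3 of which were also called in the WT set. Each is printed from 5′ to 3′ along the gene, 250 bases up to the base before the RefSeq start, with motif matches in capitals (ATTGG is the CCAAT box and CCGCCC the GC box on the other strand). Hmgcs1 is at chr13:119690101-119690350 (plus strand), Msmo1 at chr8:64733579-64733828 (minus strand), Insig1 at chr5:28071162-28071411 (plus strand) and Tmem97 at chr11:78550736-78550985 (minus strand).
Hmgcs1: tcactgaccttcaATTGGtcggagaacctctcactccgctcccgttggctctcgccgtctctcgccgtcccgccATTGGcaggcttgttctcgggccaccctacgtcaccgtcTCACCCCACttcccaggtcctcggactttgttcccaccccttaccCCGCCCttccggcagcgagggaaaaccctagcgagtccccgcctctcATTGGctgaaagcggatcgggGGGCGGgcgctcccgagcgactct
Msmo1: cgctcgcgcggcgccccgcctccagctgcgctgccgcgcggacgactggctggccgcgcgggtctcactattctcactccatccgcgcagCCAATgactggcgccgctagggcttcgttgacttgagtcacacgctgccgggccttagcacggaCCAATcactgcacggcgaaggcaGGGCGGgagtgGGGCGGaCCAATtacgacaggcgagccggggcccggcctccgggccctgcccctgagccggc
Insig1: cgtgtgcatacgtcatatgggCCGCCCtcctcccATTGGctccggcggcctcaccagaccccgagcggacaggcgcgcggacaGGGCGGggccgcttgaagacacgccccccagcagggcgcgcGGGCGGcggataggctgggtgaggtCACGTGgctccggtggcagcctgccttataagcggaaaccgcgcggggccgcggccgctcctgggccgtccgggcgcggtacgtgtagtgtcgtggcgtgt
Tmem97: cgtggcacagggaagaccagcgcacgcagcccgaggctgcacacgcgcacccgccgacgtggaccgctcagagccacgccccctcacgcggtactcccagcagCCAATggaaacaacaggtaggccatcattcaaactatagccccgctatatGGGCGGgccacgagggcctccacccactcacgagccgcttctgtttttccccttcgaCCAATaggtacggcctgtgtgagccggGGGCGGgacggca

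Hmgcs1 is shown because its promoter was the only one of the 27 with the sterol regulatory element as written, in capitals as TCACCCCAC. Insig1 is shown for its E-box (CACGTG), Msmo1 for CCAAT and GC boxes close to each other, and Tmem97 for its CCAAT and GC boxes. All 4 promoters held both a CCAAT and a GC box.

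Of the genes that control the pathway, Srebf2, Scap and Insig2 rose in the WT set and Srebf2, Insig1 and Insig2 in the CreCtrl set. Srebf2 had 78.2, 138 and 123 CPM in WT and 182, 182 and 166 CPM in KO mice, 154 and 264 CPM in Ctrl and 184 and 176 CPM in KO mice, and 134 and 119 CPM in CreCtrl and 198 and 224 CPM in KO mice. The KO libraries were above the controls in the WT and CreCtrl sets, with log2 fold changes of 0.64 (SE 0.20, edgeR adjusted p = 0.0341) and 0.74 (SE 0.16, edgeR adjusted p = 0.03). Srebf1 was nearer its controls, with log2 fold changes of 0.19 (SE 0.14, edgeR adjusted p = 0.341), 0.23 (SE 0.32, edgeR adjusted p = 0.903) and 0.26 (SE 0.17, edgeR adjusted p = 0.282). The counts do not part the transcripts of Srebf1 that start at different promoters.

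Scap, the escort of SREBP, had 191, 187 and 232 CPM in WT and 298, 359 and 348 CPM in KO mice, a log2 fold change of 0.72 (SE 0.14, edgeR adjusted p = 0.00399). In the CreCtrl set its log2 fold change was 0.51 (SE 0.17, edgeR adjusted p = 0.0738). Insig1, itself a sterol-responsive gene, had 98.8 and 79.1 CPM in CreCtrl and 139.7 and 176 CPM in KO mice and rose there by 0.83 (SE 0.19, edgeR adjusted p = 0.0322) on the log2 scale. In the WT set its groups overlapped (42.6, 56.1 and 86.0 CPM against 76.9, 86.6 and 73.7 CPM), with a log2 fold change of 0.36 (SE 0.24, edgeR adjusted p = 0.287). Insig2 had 29.5, 31.5 and 40.01 CPM in WT and 53.0, 44.9 and 61.5 CPM in KO mice, and 49.0 and 40.4 CPM in CreCtrl and 64.6 and 71.1 CPM in KO mice. It rose in both sets, by 0.66 (SE 0.19, edgeR adjusted p = 0.0249) and 0.60 (SE 0.16, edgeR adjusted p = 0.0472).

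**Figure D3:**
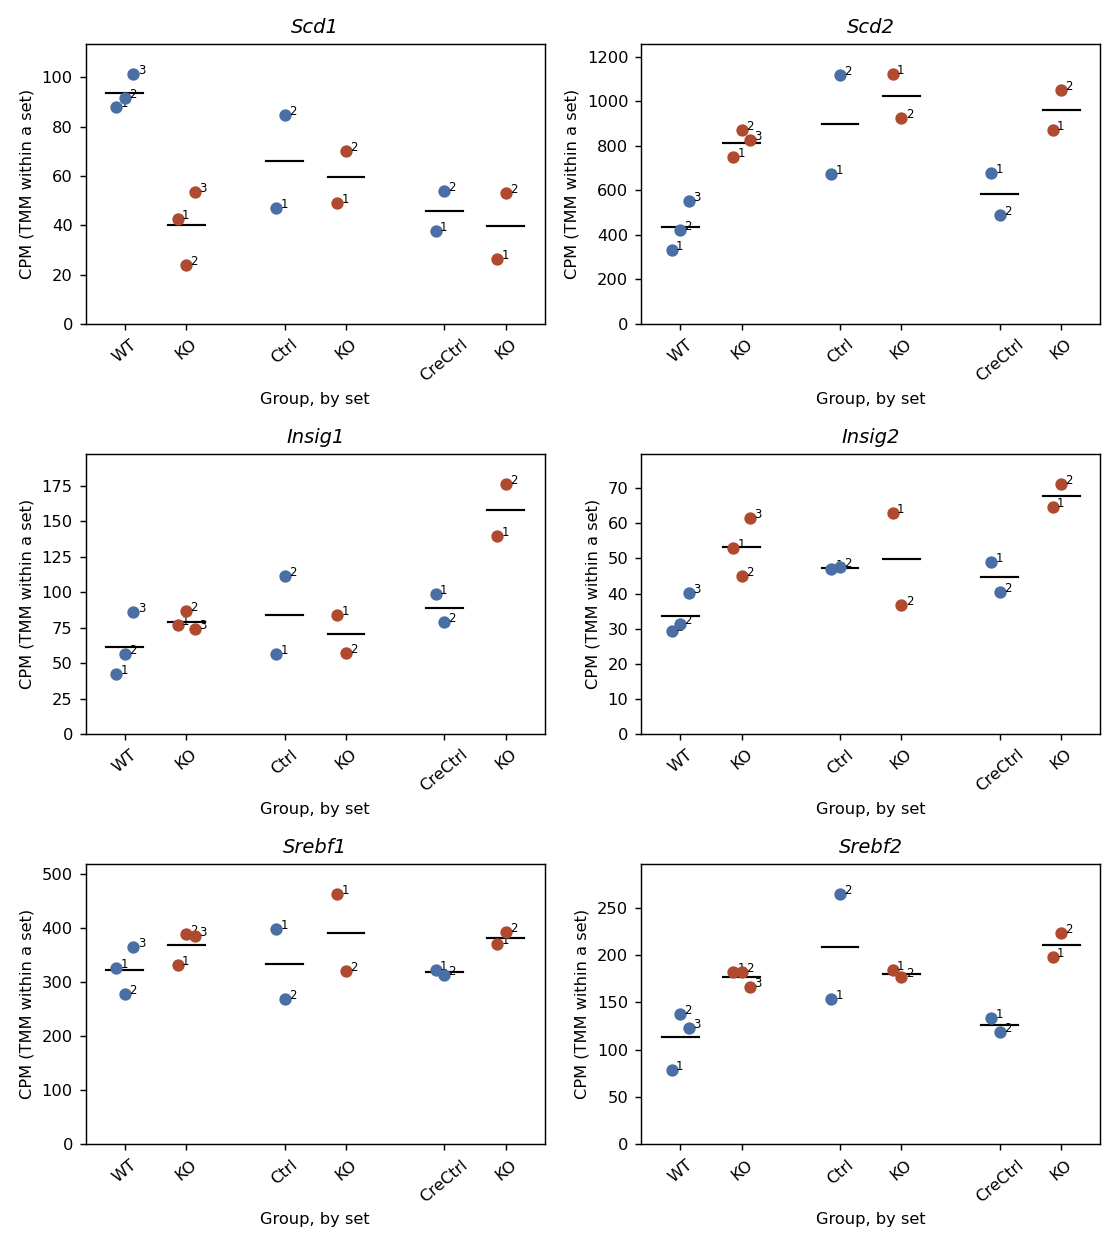
Each panel gives the CPM of 1 gene in every library (vertical axis from 0, scaled by TMM within a set), by group, with controls in blue, KO mice in red, replicate numbers beside the points and a line at the mean of each group. Scd1 and Scd2 lie on opposite sides of their WT controls, Insig1 is highest in KO mice of the CreCtrl set, and KO mice lie nearer WT and CreCtrl mice for Srebf1 than for Srebf2.

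Of the transport genes, Tmem97 rose in the WT and CreCtrl sets and Stard4 passed in none. Tmem97, a sterol-responsive membrane protein that binds the lysosomal cholesterol transporter NPC1, had 7.06, 14.2 and 14.7 CPM in WT and 28.8, 34.7 and 31.6 CPM in KO mice, and 24.2 and 15.8 CPM in CreCtrl and 33.5 and 39.1 CPM in KO mice. It rose in both sets, by 1.40 (SE 0.30, edgeR adjusted p = 0.00708) and 0.85 (SE 0.23, edgeR adjusted p = 0.0491) on the log2 scale. Ctrl mice had 11.3 and 19.0 CPM and their KO mice 17.3 and 22.4 CPM, with overlap. A pseudogene, Gm5809, shares 20.8% of the stretches of 50 bases of Tmem97 and was itself counted at no more than 0.469 CPM.

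Stard4, a carrier of cholesterol between membranes, had negative log2 fold changes in the WT, Ctrl and CreCtrl sets, of -0.83 (SE 0.59, edgeR adjusted p = 0.327), -0.98 (SE 0.61, edgeR adjusted p = 0.694) and -0.38 (SE 0.24, edgeR adjusted p = 0.29). It had 3.27, 6.79 and 4.45 CPM in WT and 2.81, 3.18 and 2.14 CPM in KO mice, 13.1 and 49.4 CPM in Ctrl and 15.1 and 16.6 CPM in KO mice, and 12.2 and 9.93 CPM in CreCtrl and 8.12 and 8.94 CPM in KO mice. Every library of the WT set was below every library of the other sets. Libraries from KO mice were below all controls in the WT and CreCtrl sets, without passing the test by edgeR. DESeq2 called Stard4 lower in the fit over all 14 libraries. Lpin1, a phosphatidate phosphatase of glycerolipid synthesis, had log2 fold changes of 0.35, -0.09 and 0.36, none of which passed.

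In the fatty acid branch, Acly, Scd2 and Me1 rose and Scd1 fell in the WT set, and Fasn rose in the CreCtrl set. Both Scd genes encode stearoyl-CoA desaturases, enzymes that make monounsaturated fatty acids. Scd1 had 87.9, 91.8 and 101 CPM in WT and 42.7, 23.8 and 53.6 CPM in KO mice, and Scd2 had 333, 423 and 554 CPM and 748, 869.7 and 825 CPM. The groups did not overlap for either gene, and the log2 fold changes were -1.23 (SE 0.26, edgeR adjusted p = 0.00703) for Scd1 and 0.90 (SE 0.19, edgeR adjusted p = 0.00612) for Scd2. Ctrl mice had 47.0 and 84.9 CPM of Scd1 and their KO mice 48.9 and 70.2 CPM, and CreCtrl mice had 37.6 and 54.1 CPM and their KO mice 26.3 and 53.2 CPM. These groups overlapped. The KO effect on Scd1 in the WT set minus that in the Ctrl set was -0.94 (SE 0.50, edgeR adjusted p = 0.307) and was not called. Scd2 had 675 and 1117 CPM in Ctrl and 1122 and 924 CPM in KO mice, and 676 and 491 CPM in CreCtrl and 872 and 1048 CPM in KO mice. Transcripts of other genes hold 4.56% of the stretches of 50 bases of Scd1 and 3.97% of those of Scd2.

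Me1, the malic enzyme that supplies NADPH, was one of the 2 members, with Acaca, whose KO libraries lay above all controls in every set. It had 133, 177 and 210.0 CPM in WT and 325, 366 and 325 CPM in KO mice, 229.8 and 204 CPM in Ctrl and 349 and 272 CPM in KO mice, and 308 and 265 CPM in CreCtrl and 378 and 460.2 CPM in KO mice. Its log2 fold changes were 0.97 (SE 0.17, edgeR adjusted p = 0.00285), 0.52 (SE 0.24, edgeR adjusted p = 0.517) and 0.55 (SE 0.19, edgeR adjusted p = 0.0817). Acaca, the acetyl-CoA carboxylase that opens fatty acid synthesis, had smaller log2 fold changes of 0.23, 0.22 and 0.39, none of which passed. Scaled by library size alone, that against WT was -0.010. Other genes' transcripts hold 28.3% of the stretches of 50 bases of Me1 and 30.4% of those of Acaca.

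Acly, which splits citrate to acetyl-CoA for both branches, rose in the WT set, from 74.5, 78.7 and 89.1 to 117, 112.07 and 124 CPM, by 0.55 (SE 0.12, edgeR adjusted p = 0.00748). Fasn, the fatty acid synthase, had 116 and 101 CPM in CreCtrl and 156 and 203 CPM in KO mice and rose by 0.72 (SE 0.19, edgeR adjusted p = 0.043), and its groups overlapped in the WT set (113, 107 and 146 CPM against 123, 152 and 172 CPM). Elovl6, which lengthens palmitate, had log2 fold changes of 0.35, -0.22 and 0.30 and passed in no set.

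Set side by side, the sterol branch differed more between KO and control mice than the fatty acid branch in the WT and CreCtrl sets. The mean log2 CPM of the 18 sterol enzymes was 3.67, 3.91 and 3.96 in WT and 4.64, 4.97 and 4.53 in KO mice, 4.65 and 5.45 in Ctrl and 4.91 and 4.88 in KO mice, and 4.56 and 4.32 in CreCtrl and 5.01 and 5.19 in KO mice. That of the 7 fatty acid genes was 6.56, 6.70 and 6.87 in WT against 7.06, 7.08 and 7.29 in KO mice, 6.997 and 7.49 in Ctrl against 7.33 and 7.22 in KO mice, and 6.94 and 6.78 in CreCtrl against 7.16 and 7.51 in KO mice. Ctrl replicate 2 had the highest sterol mean of the 14 libraries, and the fatty acid mean was highest in KO replicate 2 of the CreCtrl set. The sterol mean minus the fatty acid mean was -2.89, -2.79 and -2.91 in WT and -2.41, -2.11 and -2.75 in KO mice, all higher in KO mice, and -2.38 and -2.46 in CreCtrl and -2.16 and -2.33 in KO mice, again higher in both. For Ctrl mice it was -2.35 and -2.05 and for their KO mice -2.42 and -2.34, with overlap. These means are descriptions over members chosen with results of these data known and have no test.

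**Figure D4:**
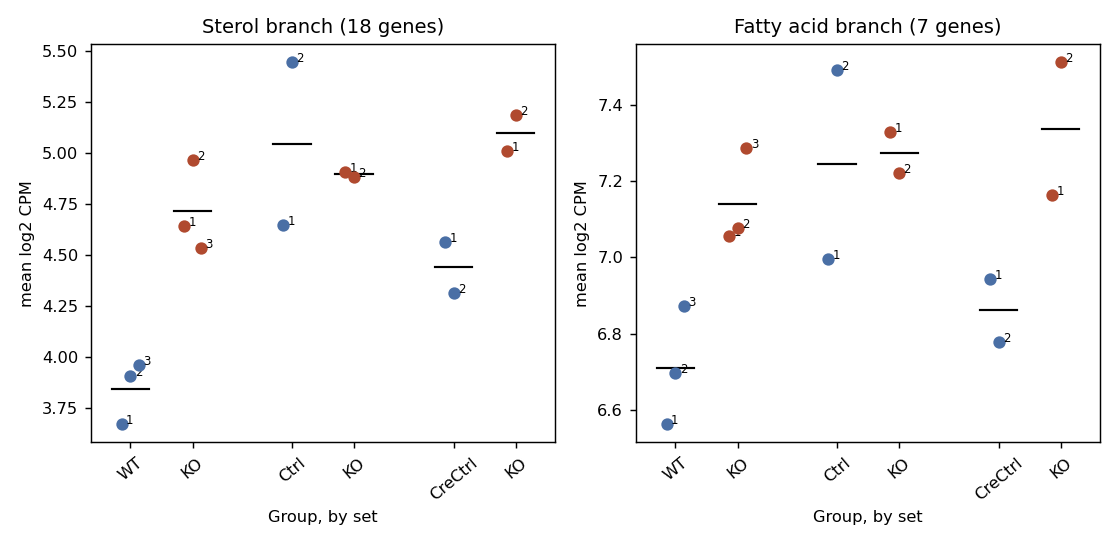
Each point is the mean log2 CPM (prior count of 2, TMM over all 14 libraries) of the sterol branch on the left or the fatty acid branch on the right in 1 library, with controls in blue, KO mice in red, replicate numbers beside the points and a line at each group's mean. KO mice lie above WT and CreCtrl mice in both panels, and Ctrl replicates 1 and 2 lie on either side of the KO mice of their set.

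Fitted over all 14 libraries with the set as a covariate (7 KO against 7 control mice), 10 members rose and none fell, where 36.2% of all genes tested were called, 18.5% higher and 17.6% lower. They were Fdft1, Sqle and Msmo1 of the sterol branch, Srebf2, Scap and Insig2 of the regulators, Tmem97, and Acaca, Scd2 and Me1 of the fatty acid branch. The largest was Fdft1, with a log2 fold change of 1.18 (SE 0.27, edgeR adjusted p = 0.0045), and the lowest p was that of Me1, with 0.79 (SE 0.14, edgeR adjusted p = 0.000941). In this fit 3 of 18 sterol enzymes and 3 of 7 fatty acid genes were called, with medians of 0.53 and 0.36 against -0.02 for all genes tested. A log2 fold change above 0 was seen for 29 members (48.5% of genes). By DESeq2, 15 members were called, 13 higher and 2 lower (Stard4 and Scd1), where 39.7% of genes were called, 17.2% higher and 22.5% lower. Without Ctrl replicate 2, 25 members were called higher, where 6917 of 19155 genes tested were called in either direction. Without KO replicate 2 of the Ctrl set 20 members were called, where 6671 of 19243 genes were.

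Whether the KO effect differed between sets was tested by contrasts over the 6 groups. The effect was larger in the WT than in the Ctrl set for Fdft1, by 1.90 (SE 0.38, edgeR adjusted p = 0.0177) on the log2 scale, for Sqle, by 1.78 (SE 0.43, edgeR adjusted p = 0.0356), for Msmo1, by 1.67 (SE 0.39, edgeR adjusted p = 0.0299), and for Acly, by 1.07 (SE 0.28, edgeR adjusted p = 0.0471), where 5.15% of all genes tested were called. At an unadjusted p under 0.05 there were 20 members (21.4% of genes). Hmgcs1 and Nsdhl were just short of the threshold, at 1.82 (SE 0.50, edgeR adjusted p = 0.0518) and 1.29 (SE 0.35, edgeR adjusted p = 0.0504). Without Ctrl replicate 2, no member was called in this contrast, and without Ctrl replicate 1, 13 were. The WT and CreCtrl sets differed for no member by edgeR, where 1.49% of genes were called, and for 2 (Fdft1 and Nsdhl) at an unadjusted p under 0.05 (14.9% of genes). The Ctrl and CreCtrl sets differed for none, where 0% of genes were called, and for 10 at an unadjusted p under 0.05 (8.75% of genes), with Acly at -1.09 (SE 0.31, edgeR adjusted p = 0.425) and Hmgcs1 at -1.66 (SE 0.54, edgeR adjusted p = 0.478).

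Genes around the pathway, taken as 5 lists of 46 genes in all, were also counted in the fit over all 14 libraries, where 18.5% of all genes tested were called higher and 17.6% lower. Of 10 genes for SREBP processing and turnover, 6 rose and 1, the site-1 protease gene Mbtps1 (named after its value was seen), fell. Rnf145, a ubiquitin ligase of this system, rose by 0.49 (SE 0.10, edgeR adjusted p = 0.00248) and Erlin2, an endoplasmic reticulum membrane protein that takes part in the turnover of such proteins, by 0.76 (SE 0.16, edgeR adjusted p = 0.00249). The value for Mbtps1 was -0.35 (SE 0.12, edgeR adjusted p = 0.0366). Of 7 genes of the non-sterol isoprenoid branch, 2 rose, Dhdds by 0.56 (SE 0.15, edgeR adjusted p = 0.00858) and Nus1 by 0.52 (SE 0.14, edgeR adjusted p = 0.0108), whose products together make dolichol precursors.

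Of 10 other fatty acid synthesis genes, 2 rose, Gpam and Acsl3, a share close to the 18.5% of all genes. Gpam, the mitochondrial glycerol phosphate acyltransferase, had 54.4, 37.0 and 47.0 CPM in WT and 257, 245 and 343 CPM in KO mice, 202 and 409.7 CPM in Ctrl and 453 and 269 CPM in KO mice, and 254 and 186 CPM in CreCtrl and 391 and 518 CPM in KO mice. Its log2 fold change was 2.61 (SE 0.20, edgeR adjusted p = 4.84e-05) in the WT set and 1.04 (SE 0.23, edgeR adjusted p = 0.0298) in the CreCtrl set, and in the Ctrl set the groups overlapped. Whether these calls stay when a library is left out was examined for members only, and so not for Gpam. Acsl3, an acyl-CoA synthetase, rose over all sets by 0.65 (SE 0.19, edgeR adjusted p = 0.0166).

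Of 7 genes listed for sterol esterification and oxysterol formation, among them the sterol reductase gene Lbr, 1 rose and 2 fell over all sets. There 18.5% of all genes were called higher and 17.6% lower. Soat1, which esterifies cholesterol for storage, had 113, 129 and 129.9 CPM in WT and 205, 213 and 214 CPM in KO mice, 187 and 182 CPM and 246 and 249 CPM in the Ctrl set, and 185 and 178 CPM and 219 and 242 CPM in the CreCtrl set. KO mice were above all controls in every set, and its log2 fold change over all sets was 0.62 (SE 0.10, edgeR adjusted p = 0.000648). Ch25h, which makes an oxysterol and is expressed strongly in macrophages, fell, with -1.45 (SE 0.42, edgeR adjusted p = 0.0146). Lbr, a sterol reductase of the nuclear membrane, also fell, with -0.59 (SE 0.20, edgeR adjusted p = 0.0354). It is a sterol reductase like the member Tm7sf2, but was not among the 18 enzymes counted as the sterol branch. Of the 8 myeloid markers, 7 were called lower against WT, 0 against Ctrl and 6 against CreCtrl mice. The part of myeloid cells in the level of Ch25h was not tested. Of 12 paralogues of members, 11 were tested and 4 rose, among them Me3 by 1.05 (SE 0.20, edgeR adjusted p = 0.00165), Acat1 by 0.69 (SE 0.14, edgeR adjusted p = 0.00232) and, named after its value was seen, Lpin2 by 0.47 (SE 0.15, edgeR adjusted p = 0.0225).

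**Figure D5:**
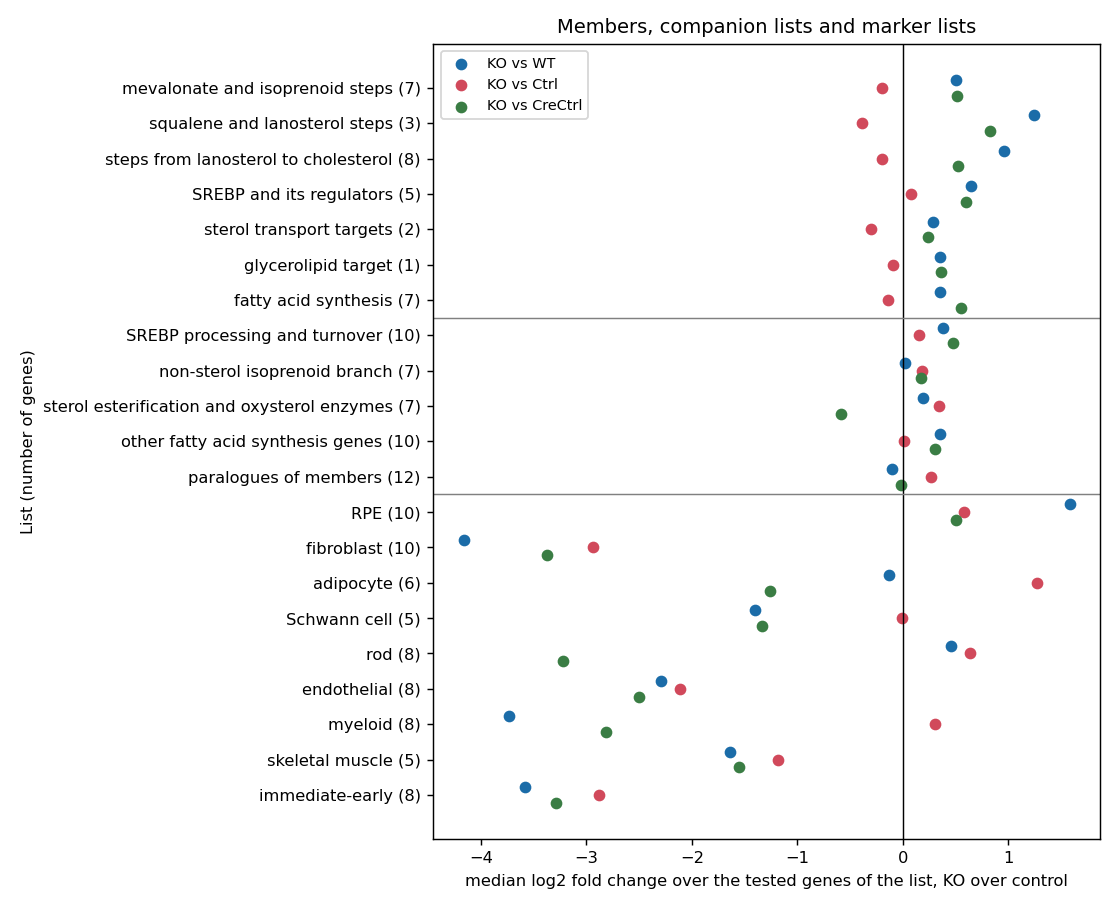
The horizontal axis gives the median log2 fold change of KO over control over the tested genes of a list, in blue for the WT, red for the Ctrl and green for the CreCtrl set, and horizontal lines part the lists of members, the lists around the pathway and the marker lists. The squalene and lanosterol steps lie farthest right of the member lists in the WT and CreCtrl sets, RPE markers lie right of 0 in every set, and fibroblast, endothelial and immediate-early genes lie left of 0 in every set.

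Per length of exon, Scd2 was the most abundant member in every group, at 79.9 ± 20.3 CPM per kb in WT (SD, n = 3) and 149.02 ± 11.3 in KO mice (SD, n = 3). Me1, Srebf1 and Scap came next in KO mice of the WT set, with 88.0 ± 6.2027, 65.3 ± 5.66 and 45.0 ± 4.39 CPM per kb (SD, n = 3). Fdft1 was the highest sterol enzyme there, at 39.6 ± 3.57 CPM per kb (SD, n = 3), against 10.5 ± 0.719 in WT mice (SD, n = 3). Fdps, Stard4 and Idi1 were the lowest there, at 0.129, 0.485 and 0.716 CPM per kb.

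Calls in the WT set stayed more often than those in the CreCtrl set when a library was left out. Groups hold 3 mice in the WT set and 2 in the CreCtrl set, so the sets are not evenly compared in this. Leaving out each library in turn, 12 of the 17 called members stayed called in all 6 fits of the WT set, and 8 of 10 stayed called in all 14 fits over all sets. In the CreCtrl set, 0 of 12 stayed called in all 4 fits, each of which leaves 1 mouse in a group. The sterol median ran from 0.53 to 0.87 in these fits. Scaled by library size alone, the median of all genes tested moved to -0.32 in the WT and -0.24 in the CreCtrl set, and that of the sterol branch was then 0.58 and 0.40.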

How the data were processed

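RPE cells of each mouse gave 1 stranded mRNA library with paired reads. Alignment to GRCm38 was done by the authors with STAR (2.5.2), and they deposited whole-number counts of reads per Ensembl gene, without normalization. The submitters' processing notes name HTSeq (0.11.2) and Cufflinks (2.1.1) with no role, and the strand setting of the counting is not given in the sources used here. Every column of the table belonged to a library. GENCODE M21 gave names, exons and transcripts, and held 42250 of the 42687 genes.

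KO libraries were compared with the controls of their own set by edgeR (4.0.16) quasi-likelihood tests in R (4.3.3), with TMM, filterByExpr and Benjamini-Hochberg adjustment over all genes tested (15428, 15287 and 15963 in the WT, Ctrl and CreCtrl sets, 17662 over all 14 libraries), called at an adjusted p under 0.05. DESeq2 (1.42.0), RLE normalization, library size alone, other count filters, 1 fit of all libraries, a replicate block and leaving out each library were alternatives. Scripts were tested on simulated data. CPM use TMM factors within a set. Log2 CPM over all libraries use a prior count of 2. The members and lists were chosen with earlier results of these data known. Named were all members, Clic4, up to 3 genes per list around the pathway with the lowest p in the fit over all sets (of those with an adjusted p under 0.05), and up to 3 genes per marker list. Some genes that this rule names are not reported here. No 2 libraries of a group agreed within sampling noise. Each test sets a difference against the spread between mice, estimated from 2 or 3 mice a group with information shared over genes. Figures were drawn with matplotlib (3.10.9) in Python (3.11.15).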

Additional observations from a re-analysis of the deposited data

Results flagged for a closer look

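Among the 7 KO libraries, 1 library stood far above the others for 3 of the 33 members, where chance marks about 1 group in 20. Mvk in KO replicate 2 of the WT set was at 5.26 log2 CPM, 0.637 of the whole range above the next library (4.78). Sqle in KO replicate 2 of the CreCtrl set was at 6.57 log2 CPM, 0.578 of the whole range above the next library (6.25). Tm7sf2 in KO replicate 3 of the WT set was at 4.74 log2 CPM, 0.594 of the whole range above the next library (4.36). The KO libraries come from 3 sets, so this rate need not hold for them, and the part of the set was not tested.

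The KO effect on the log2 scale was larger in the WT than in the Ctrl set for 4 members by edgeR's contrast. The difference was 1.90 (SE 0.38, edgeR adjusted p = 0.0177) for Fdft1, 1.78 (SE 0.43, edgeR adjusted p = 0.0356) for Sqle, 1.67 (SE 0.39, edgeR adjusted p = 0.0299) for Msmo1 and 1.07 (SE 0.28, edgeR adjusted p = 0.0471) for Acly. For each of them the KO libraries lay above all WT mice, and at least 1 KO library of the Ctrl set lay below a control. None of the 4 was called without Ctrl replicate 2 or without KO replicate 2 of the Ctrl set.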

How the results depend on the processing

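Library size alone gave sterol medians of 0.58, 0.40 and 0.26 and fatty acid medians of 0.11, 0.33 and 0.091 in the WT, CreCtrl and joint fits. Called members in the CreCtrl set numbered 6 with library size alone, 19 by DESeq2 and 0 in 1 fit of all libraries. All genes called in these fits were 2976 of 15963, 4096 of 15963 and 704 of 17662. The joint fit with every gene of at least 1 count called 18 members and 6243 of 27272 genes. Members differing between the WT and Ctrl sets numbered 2 with RLE, 1 with library size alone and 14 with genes of at least 1 count, which gave 1 for WT against CreCtrl and 7 for Ctrl against CreCtrl. Uncalled values turned sign with library size alone for Srebf1 (-0.053, WT), Acaca (-0.010, WT), Ebp (-0.12, CreCtrl), Mvk (-0.029, joint), Tm7sf2 (-0.25, joint) and Elovl6 (-0.022, joint). Same-numbered libraries deviated from their group means with r of -0.0064, 0.066 and 0.186 in the WT, -0.023 in the Ctrl and 0.171 in the CreCtrl set, so the numbers were not taken to pair the mice. The replicate block gave 15, 0, 16 and 9 called members (WT, Ctrl, CreCtrl, joint). All genes called with it were 4857 of 15428, 113 of 15287, 3824 of 15963 and 5321 of 17662. The unblocked fit called 0 genes in the Ctrl set. The causes were not tested.

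Leaving out 1 library gave 13 to 16 (WT), 0 (Ctrl), 0 to 18 (CreCtrl) and 8 to 25 (joint) called members, and 0 to 13 (WT against Ctrl), 0 to 1 (WT against CreCtrl) and 0 to 4 (Ctrl against CreCtrl) differing members. All genes called ran from 4490 of 16199 to 4820 of 16064 in the WT fits. In the joint fits they ran from 5481 of 19206 to 6917 of 19155. Sterol medians ran 0.60 to 1.01, -0.45 to 0.21, 0.53 to 0.87 and 0.43 to 0.62 (WT, Ctrl, CreCtrl, joint). Fatty acid medians ran 0.32 to 0.47, -0.38 to 0.26, 0.41 to 0.71 and 0.31 to 0.46 in the same order. Of the values that turned sign and moved by at least 1 SE, log2 fold changes in the Ctrl set ran -0.27 to 0.78 for Fdft1, -0.40 to 0.57 for Msmo1, -1.01 to 0.37 for Hmgcs1, -1.49 to 0.043 for Fdps, -0.86 to 0.32 for Sqle, -0.995 to 0.25 for Lss, -1.07 to 0.58 for Cyp51, -0.51 to 0.17 for Nsdhl, -0.68 to 0.48 for Hsd17b7, -0.80 to 0.49 for Sc5d, -0.40 to 0.091 for Dhcr7, -0.55 to 0.23 for Srebf2, -0.65 to 0.33 for Insig1, -1.64 to 0.28 for Stard4, -0.38 to 0.15 for Fasn, -0.52 to 0.18 for Elovl6, -0.51 to 0.34 for Scd1, -0.38 to 0.35 for Acat2, -0.17 to 0.40 for Scap and -0.37 to 0.41 for Insig2, and in the CreCtrl set -0.79 to 0.24 for Scd1. Uncalled values of Ebp, Idi1, Lpin1, Mvd, Scd2, Srebf1 and Tm7sf2 (Ctrl), Fdps (CreCtrl), Mvk and Tm7sf2 (WT) and Tm7sf2 (joint) also turned sign, moving by less than 1 SE. Counts were few for Idi1 and Fdps, at most 174 and 235 a library.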

Other observations

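KO mice of the 3 sets carry the same genotype and differed for some members on the scale of log2 CPM over all 14 libraries. Insig1 was at 6.29, 6.48 and 6.21 in KO mice of the WT set, 6.46 and 5.89 in those of the Ctrl set and 7.18 and 7.47 in those of the CreCtrl set. Stard4 was at 1.57, 1.76 and 1.17, 3.99 and 4.11 and 3.09 and 3.18 in the same order. For both genes the KO libraries of 1 set did not overlap those of the others, highest in the CreCtrl set for Insig1 and lowest in the WT set for Stard4. These differences between sets were not tested.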
